A study of Mus musculus with 13 samples.

Results

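The subunits of the oxidative phosphorylation machinery were examined in bulk RNA-seq of mouse brain. Members were the protein-coding genes whose symbols begin with mt- or name a subunit of complexes I to V (Nduf, Sdh, Uqcr, Cyc1, Cox4 to Cox8 and Atp5) and whose mean was at least 10 counts over the 13 libraries. Of 55401 genes, 101 had such a symbol and 93 were members, 13 of them encoded by mitochondrial DNA and 80 by the nucleus. The nuclear members comprised 36 of complex I, 4 of complex II, 9 of complex III, 14 of complex IV and 17 of complex V. Ndufa4 was counted in complex IV despite its symbol, and Cox7a2l was counted there by its symbol. Cox6b2 lay just inside the minimum, with a mean of 12.2 counts, and Ndufa4l2 just outside it, with 9.85.

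The mice were male C57BL/6J, 6 to 8 weeks old per the labels. The CPZ group (n = 4) received chow with 0.3% cuprizone, a copper chelator that kills oligodendrocytes, for 4 weeks. The RCV group (n = 4) was kept on cuprizone as long and returned to control chow for 2 more weeks, and the CTL group (n = 5) received control chow for 6 weeks. Each library came from a frozen hemisphere of 1 mouse. CPZ brains were taken at 4 weeks and the others at 6 weeks, so that diet and time of sampling cannot be told apart in comparisons with CPZ. The labels state 3 CPZ, 3 RCV and 4 CTL mice, fewer than the libraries they list. RCV libraries carry the treatment label Recovery but have Veh in their titles and column names, and they were grouped by the treatment label.

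Oxidative phosphorylation transfers electrons from NADH and succinate through complexes I and II to complex III, and by cytochrome c to complex IV, which reduces oxygen. Complexes I, III and IV pump protons, and complex V, the ATP synthase, uses the gradient to make ATP. Complex IV holds copper, and all complexes except II combine subunits of both genomes.

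Before the values, a property of the mitochondrial members has to be shown. On chromosome 1 of GRCm38, at chr1:24611535-24616197 on the minus strand, GENCODE M21 annotates a run of unprocessed pseudogenes that copy a stretch of mitochondrial DNA. Of the 13 mitochondrial members, 7 have an annotated copy there. Only annotated transcripts were searched, so copied bases outside an annotated gene would be missed. mt-Co2, mt-Co3, mt-Atp6, mt-Nd4 and mt-Nd4l matched their copies without a mismatch over 681, 783, 678, 876 and 294 bases. The mt-Nd4l gene (chrM:9877-10173), a small membrane subunit of complex I, is shown whole from the GENCODE M21 transcripts, with capitals for the bases outside its copy Gm10222. They are the last 3.
mt-Nd4l: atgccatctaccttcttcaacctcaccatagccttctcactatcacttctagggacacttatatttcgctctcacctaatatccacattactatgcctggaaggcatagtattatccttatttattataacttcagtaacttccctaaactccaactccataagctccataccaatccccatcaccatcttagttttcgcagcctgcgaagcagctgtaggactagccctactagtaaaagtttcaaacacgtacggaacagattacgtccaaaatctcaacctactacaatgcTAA

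mt-Nd3 and its copy Gm28438 differed by 1 base in 345, T3C, counted from the first base of the mitochondrial gene. The first 60 bases of both are shown, with that base in capitals.
mt-Nd3: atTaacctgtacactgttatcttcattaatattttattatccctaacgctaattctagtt
Gm28438: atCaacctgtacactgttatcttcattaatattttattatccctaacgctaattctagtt

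mt-Co1, the catalytic subunit of complex IV, is copied in this run from base 1054 on, over 492 bases. Its 6 mismatches with Gm29216 (T1056A, C1057T, A1059G, A1060G, C1062A and A1066T) all lie at the start of that stretch, shown here with the differing bases in capitals.
mt-Co1: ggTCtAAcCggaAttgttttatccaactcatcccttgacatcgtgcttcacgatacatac
Gm29216: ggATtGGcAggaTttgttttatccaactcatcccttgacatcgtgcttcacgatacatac

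A read of 50 bases that lies within an identical stretch cannot be assigned by its sequence alone. Reads came in pairs, and the windows below treat each read without its mate, so they do not give the share of ambiguous pairs. Of all 50-base windows, 100% of those of mt-Co2, 99.9% of mt-Co3, 99.5% of mt-Atp6, 98.8% of mt-Nd4l and 98.0% of mt-Nd3 also occurred in another gene. The share was 62.2% for mt-Nd4 and 51.1% for mt-Co1, and 0% for mt-Nd1, mt-Nd6, mt-Cytb and mt-Atp8. For mt-Atp8 the 0% does not show that its reads were unambiguous. It shares 43 of its 204 bases with mt-Atp6 on the same strand, fewer than a window holds. Copied bases of mt-Atp8 outside an annotated gene were not sought. Of the mt-Co1 windows, 430 lay in Gm29216 and 411, scattered between bases 1 and 1457, in another pseudogene, Gm13340. Gm13340 averaged 37.8 counts, or 0.0347% of its sum with mt-Co1, and was not added as a copy. In the deposited counts, 94.5% of the counts summed over mt-Co3 and Gm28437 stood on the copy, as did 92.9% for mt-Atp6, 91.6% for mt-Co2, 79.5% for mt-Nd3 and 66.4% for mt-Nd4l, against 6.61% for mt-Co1 and 0.085% for mt-Nd4. Whether those counts came from mitochondrial or nuclear RNA cannot be told apart. Mitochondrial values are therefore given for the member's own row and, where they differ, for member and copy summed, a setting chosen after the data were seen.

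The split between member and copy varied between mice. mt-Co3 alone ranged 6.92-fold over the 13 libraries in CPM (counts scaled to library size with TMM factors), and 1.43-fold with its copy added. For mt-Co2 the range was 3.35-fold alone and 1.44-fold with the copy, and for mt-Nd3 it was 4.02-fold alone and 1.54-fold with the copy. mt-Co1, which carries the most counts of any member, ranged 1.30-fold alone.

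No nuclear member had over 50% of its windows in other genes, and 29 had none. Of the 11 nuclear members with a copy, Ndufb4, an accessory subunit of complex I, had 65.3% of the summed counts on the pseudogene Ndufb4c, and the next was Atp5l with 15.5% on Gm10221. Of the 93 members, 40 shared exonic bases with another gene, 30 of them with one on the opposite strand. The strand setting of the counting was not given in the sources used here, so reads from such a pair may not have been separated.

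All 93 members passed the filter on low counts, which left 14985 genes tested. Library totals ranged from 4605100 to 8197289 counts. A member had a median of 566 counts per library, from 12.2 for Cox6b2 to 108900 for mt-Co1. The bulk tissue mixes cell types whose marker RNA changed: all 12 mature oligodendrocyte markers fell and all 12 microglia markers rose in CPZ against CTL. Of 12 neuronal markers, 11 lay below 0, with a median log2 fold change of -0.10, and 1 (Eno2) was lower at an adjusted p under 0.05. Of 8 astrocyte markers, 4 were higher and 0 lower at that threshold. Fewer cells of a type and less RNA per cell cannot be told apart in such samples. Summed choroid plexus markers ranged from 14.7 to 1436 CPM within RCV alone. The part of these shifts in the members' values was not tested.

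Levels between genes were compared per length, in TPM (counts scaled to gene length and then to a fixed total). Complex IV and complex V led the nuclear members, with median levels of 529 and 386 TPM, followed by 274 for complex III, 194 for complex I and 172 for complex II. Cox8a, the smallest subunit of complex IV, stood highest at 1276 ± 36.1 TPM (SD, n = 13), followed by Atp5b, the catalytic beta subunit of the ATP synthase, at 1163 ± 61.8 and Cox4i1, a structural subunit of complex IV, at 1003 ± 44.0. Cox6a1 followed at 820 ± 46.6 and Atp5md at 753 ± 50.2, and the ranges of 1 SD around these last 2 overlap, while those of Cox8a and Atp5b do not.

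The leading nuclear members of the other complexes were Uqcrh, the hinge protein of complex III, at 508 ± 30.7 TPM, Ndufb8 of complex I at 395 ± 20.9 and Sdha, the flavoprotein of complex II, at 261 ± 17.0 (SD, n = 13). The lowest rows were those of Ndufb4 at 45.3, Cox6a2 at 16.8 and Cox6b2 at 12.4 TPM, and the place of Ndufb4 holds for its own row alone, without the counts on Ndufb4c. The partner isoforms Cox4i2, Cox7a1, Cox8b and Ndufa4l2 averaged 6.77, 6.85, 2.0 and 9.85 counts and were not members.

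Among mitochondrial members with few shared windows, mt-Cytb, the only mitochondrial subunit of complex III, reached 13430 TPM, mt-Nd1 8918 and mt-Nd6 1313 TPM on average. mt-Co1 reached 24038 TPM. Summed over members, the nuclear genes held 24796 to 27103 TPM per library and the mitochondrial genes 68668 to 90121, or 118811 to 160816 with copies. TPM of the shortest genes depend on the fragment length that the estimate assumes, and no order is read from mt-Atp8, whose gene spans 204 bases.

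In CPZ against CTL, the question was whether cuprizone changed these transcripts at its 4-week point. Of the 93 members, 1 was called (adjusted p under 0.05 in the edgeR quasi-likelihood F test, p-values adjusted by the Benjamini-Hochberg method over all genes tested), against 10.2% of all genes tested. It was Cox6a2, and it was higher in CPZ, as were 7.66% of all genes, while 2.50% of all genes and no member were lower. The CPZ and CTL libraries did not overlap for Cox6a2 alone among members, beside 13.1% of all genes. Only 2 members lay under an unadjusted p of 0.05, against 22.1% of all genes. The second was Uqcrc1, a core protein of complex III named after its values were seen, at a log2 fold change of -0.13 ± 0.06 (SE, adjusted p = 0.176).

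The nuclear members lay on both sides of 0. Of 80, 39 lay above 0 and 41 below, beside 45.4% and 54.6% of all genes tested, with a median log2 fold change of -0.00, beside -0.02 over all genes tested. The number below 0 was 30 without a filter on low counts and 32 with the mitochondrial genes left out of the scaling, and 30 to 45 over all alternatives. Medians by complex were 0.00 for I, 0.00 for II, -0.03 for III, 0.02 for IV and -0.00 for V. Apart from Cox6a2, nuclear values ran from -0.13 to 0.14. For 78 of the 80, the 95% interval lay within a 1.25-fold change either way, and the 2 exceptions were Cox6a2 and Cox6b2, the lowest in counts.

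The most abundant nuclear member of each complex had an interval that spanned 0. Atp5b stood at 881 CPM in CPZ and 895 in CTL, a log2 fold change of -0.02 (95% interval -0.14 to 0.09). Cox8a differed by 0.03 (-0.08 to 0.13) and Sdha by -0.05 (-0.16 to 0.06). Ndufb8 differed by 0.01 (-0.11 to 0.13) and Uqcrh by -0.03 (-0.16 to 0.11).

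The 13 mitochondrial members had a median log2 fold change of 0.06 in CPZ against CTL, with 9 above 0 and none called. Their intervals were wider than the nuclear ones: only 5 of 13 lay within 1.25-fold. mt-Nd5, a proton-pumping subunit of complex I, had the smallest p, at 0.16 ± 0.08 (SE, adjusted p = 0.271). mt-Co1 was at 0.06 ± 0.09 and mt-Cytb at 0.11 ± 0.09. With copies added, the median was 0.07, the largest SE fell from 0.47 to 0.20, and values ran from -0.14 to 0.16.

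**Figure D1:**
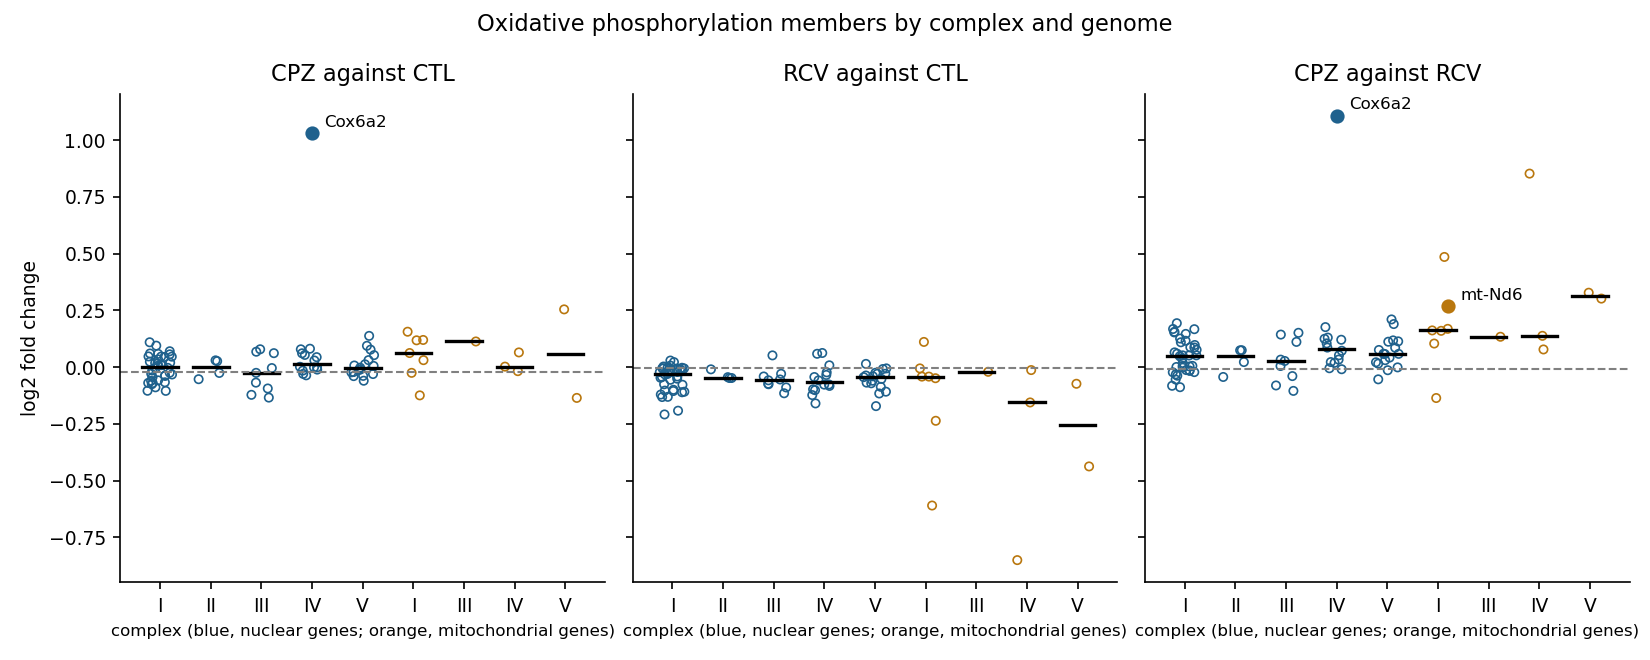
Log2 fold change of each member (vertical axis) by complex in the 3 comparisons, for nuclear genes in blue and mitochondrial genes in orange; filled points passed the adjusted p threshold of 0.05, black bars are medians and dashed lines the median of all genes tested. Nuclear complexes sit near 0 apart from Cox6a2 at 1.03 and 1.11, and the mitochondrial rows spread more widely, with mt-Co3 at -0.85 in RCV against CTL as the lowest.

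Cox6a2 encodes the isoform of complex IV subunit 6a best known from heart and skeletal muscle, and Cox6a1 the widely expressed isoform. Cox6a2 lies at chr7:128205435-128206387 on the minus strand (GRCm38). Its counts were 29, 19, 25, 12 and 20 in CTL, 61, 67, 37 and 34 in CPZ, and 21, 23, 11 and 15 in RCV. In CPM the CPZ libraries lay between 4.39 and 8.79, above the 5 CTL libraries at 1.83 to 3.94 and the 4 RCV libraries at 2.12 to 3.73, so that CPZ overlapped neither group.

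The log2 fold change of Cox6a2 was 1.03 ± 0.26 in CPZ against CTL (SE, adjusted p = 0.0148), a 2.04-fold rise with a 95% interval of 1.40 to 2.98. In CPZ against RCV it was 1.11 ± 0.28 (adjusted p = 0.0245). In RCV against CTL it was -0.08 (95% interval -0.69 to 0.54). The comparison with CTL lost its call without CPZ replicate 1 (0.88, adjusted p = 0.0712) or without CPZ replicate 2 (0.91, adjusted p = 0.065). Against RCV, the adjusted p of Cox6a2 rose to 0.0935 when CPZ replicate 1 was left out and to 0.0855 when CPZ replicate 2 was. It was 0.0674 with RCV replicate 1 left out and 0.0787 with RCV replicate 3 left out. The call against RCV was also lost with limma-voom, limma on log2(TPM + 0.1) and limma on unfiltered log2(TPM + 1). It held in 18 of 25 alternatives against RCV. Against CTL the call held in 22 of 25 and was also lost with limma on unfiltered log2(TPM + 1).

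Cox6a1 stood far above its partner and did not pass the test. It lay between 140 and 175 CPM in CTL, 159 and 176 in CPZ and 150 and 160 in RCV, with a log2 fold change of 0.06 ± 0.06 in CPZ against CTL (SE, adjusted p = 0.659). Cox6a2 averaged 12.9 ± 3.51 TPM in CTL (SD, n = 5) and 26.3 ± 8.82 in CPZ (n = 4), beside 815 ± 62.7 and 849 ± 34.4 TPM for Cox6a1.

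Several measurements stand beside the Cox6a2 result. Of 5 skeletal muscle markers, only Acta1 passed the filter on low counts. Ckm, the muscle creatine kinase, was at 0 in 12 of 13 libraries, and the 5 markers summed to 4.35 to 6.42 CPM in CTL, 5.18 to 6.93 in CPZ and 4.05 to 5.86 in RCV. Of 4 genes listed as parvalbumin interneuron markers (Pvalb, Kcnc1, Erbb4 and Tac1), none was called in any comparison. Pvalb itself was at 0.61 ± 0.32 in CPZ against CTL (SE, adjusted p = 0.298). How specific the others are to these cells was not tested. Itgad, an integrin gene on the opposite strand, shares 70 of the 680 exonic bases of Cox6a2 and had 0 to 5.11 counts per library. In the other isoform pair with both genes tested, neither passed the test: Cox6b2 was at 0.08 ± 0.39 and Cox6b1 at -0.01 ± 0.06 (SE, adjusted p = 0.943 and 0.949).

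**Figure D2:**
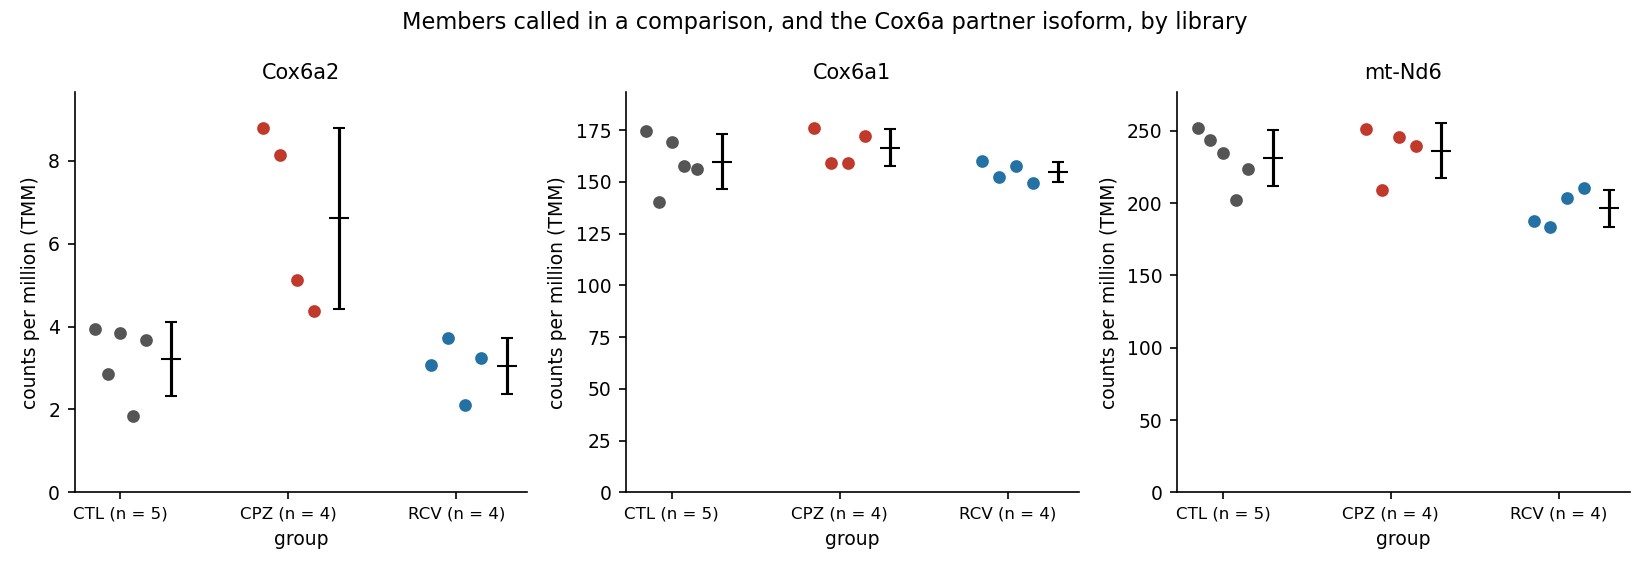
TMM-scaled CPM of Cox6a2, Cox6a1 and mt-Nd6 in each library (points) by group, with the mean and SD beside them. The 4 CPZ libraries of Cox6a2 lie between 4.39 and 8.79, above every CTL and RCV library, Cox6a1 overlaps between groups, and RCV holds the lowest values of mt-Nd6.

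RCV against CTL asks what remained 2 weeks after cuprizone was withdrawn, and it uses the same CTL libraries as the comparison above. None of the 93 members was called by edgeR, against 0.374% of all genes tested (0.360% higher and 0.0133% lower), and none by the DESeq2 Wald test, limma-voom or limma on log2 TPM. At an unadjusted p under 0.05 lay 6 members, against 6.20% of all genes. All 6 were lower in RCV, namely Cox7a2, Atp5g1, Ndufa11, Ndufa1, mt-Nd6 and mt-Atp8, with log2 fold changes from -0.44 to -0.16.

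The nuclear members lay slightly to one side. Of 80, 71 were below 0 and 9 above, with a median of -0.04, beside 51.4% below 0 and a median of -0.00 over all genes tested. Members are not independent of each other, and the size is small: per mouse, the mean log2-CPM of the nuclear members was 6.13 to 6.22 in CTL, 6.11 to 6.16 in RCV and 6.14 to 6.24 in CPZ, so the groups overlapped. Complex medians were -0.03 for I, -0.05 for II, -0.06 for III, -0.07 for IV and -0.04 for V. The count below 0 was 60 when the mitochondrial genes were left out of the scaling, and 60 to 74 over all alternatives.

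The 3 lowest nuclear members in RCV against CTL were Ndufa1 at -0.21 ± 0.10, Ndufa11 at -0.19 ± 0.07 and Atp5g1 at -0.17 ± 0.06 (SE, adjusted p = 0.785, 0.609 and 0.521). Ndufa1 and Ndufa11 are accessory subunits of complex I, and Atp5g1 encodes the c subunit of the ATP synthase ring. The 3 highest were Cox6b2 at 0.06 ± 0.40, Cox7a2l, a supercomplex assembly factor, at 0.06 ± 0.07 and Uqcrfs1, the Rieske iron-sulfur protein, at 0.05 ± 0.07 (SE, adjusted p = 0.998, 0.984 and 0.989). The 95% interval of 75 of the 80 lay within 1.25-fold.

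The groups did not overlap in this comparison for 2 members, 2.15% of the 93, beside 2.90% of all genes tested. They were Atp5g1, at 72.9 to 80.03 CPM in RCV and 80.4 to 93.6 in CTL, and Cox7a2, a small complex IV subunit, at 73.9 to 78.9 in RCV and 81.8 to 86.9 in CTL. The log2 fold change of Cox7a2 was -0.16 ± 0.05 (SE, adjusted p = 0.331).

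Of the 13 mitochondrial members, 12 lay below 0 in RCV against CTL, with a median of -0.05. The row of mt-Co3 alone gave -0.85 ± 0.48 (SE, adjusted p = 0.893), and with its copy -0.08 ± 0.11. mt-Nd3 alone gave -0.61 ± 0.43 and with its copy -0.16 ± 0.13. mt-Nd4l turned from 0.11 ± 0.13 alone to -0.19 ± 0.11 with its copy. With copies the median was -0.08 and all 13 lay below 0, from -0.44 for mt-Atp8 to -0.00 for mt-Co1, and none was called. No copy was added to mt-Atp8, whose SD of log2 CPM within groups, 0.32, was then the largest of the 13. These members are not independent of each other. Per mouse, their mean log2-CPM with copies was 10.68 to 11.14 in CTL and 10.74 to 10.96 in RCV, so the groups overlapped.

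**Figure D3:**
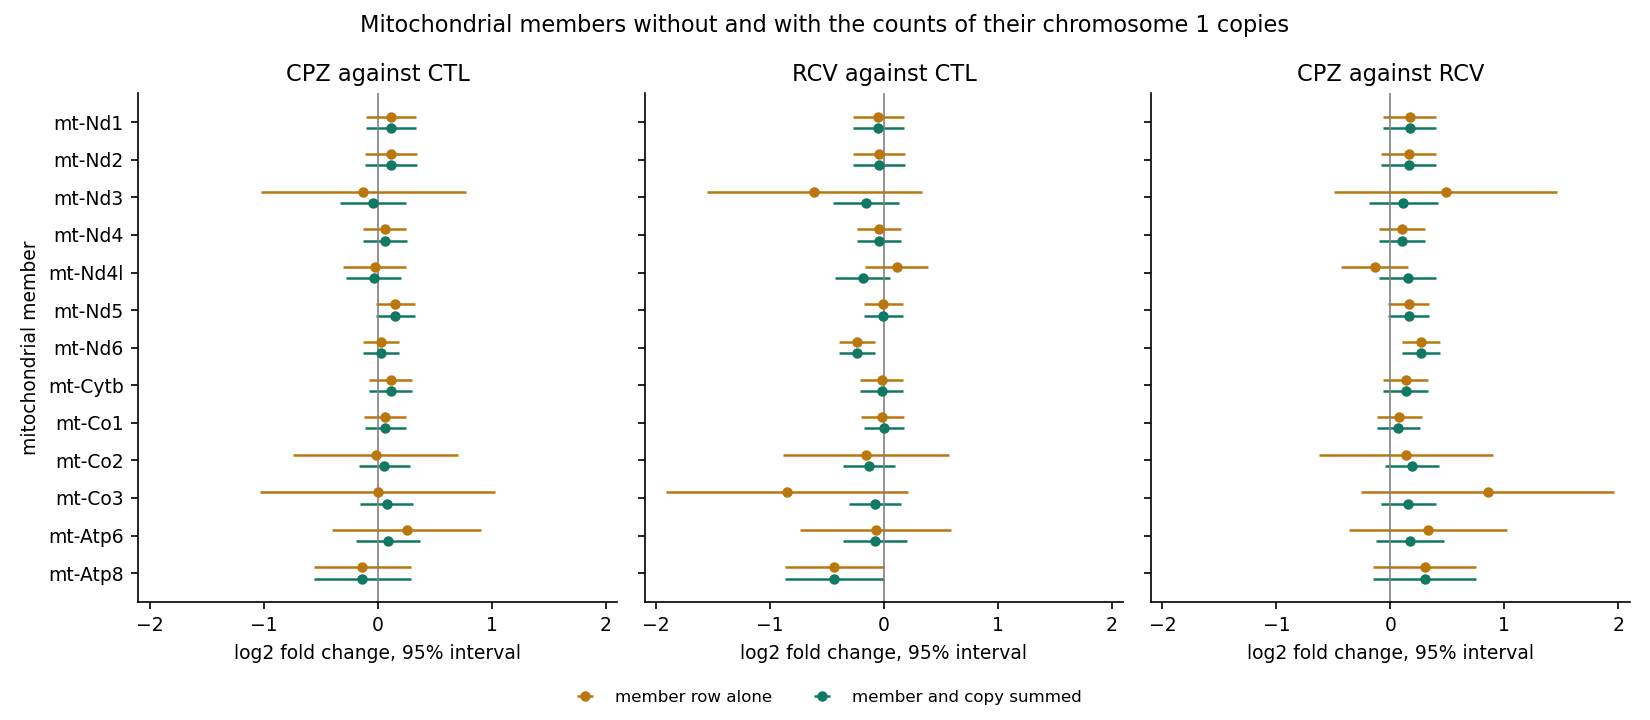
Log2 fold change with its 95% interval for the 13 mitochondrial members in the 3 comparisons, from the member's row alone (orange) and from member and chromosome 1 copy summed (green). The widest intervals, those of mt-Co3, mt-Nd3, mt-Co2 and mt-Atp6, narrow when the copy is added. mt-Nd6, which has no annotated copy, keeps 0.27 in CPZ against RCV.

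In CPZ against RCV, which compares the end of cuprizone with 2 weeks of withdrawal, 2 members were called, 2.15% of the 93, against 7.01% of all genes tested. Both, Cox6a2 and mt-Nd6, were higher in CPZ, as were 5.13% of all genes, against 1.88% lower. At an unadjusted p under 0.05 lay 8 members, all higher in CPZ, against 19.1% of all genes. Groups did not overlap for 5 members, all nuclear, beside 13.2% of all genes: Cox6a2, Cox7a2, Cox6b1, Uqcr10 and Atp5e, each higher in CPZ and all but Cox6a2 uncalled. Atp5e, the epsilon subunit of the ATP synthase, came closest at 0.21 ± 0.07 (SE, adjusted p = 0.0763), with 48.6 to 53.0 CPM in CPZ and 41.2 to 47.2 in RCV.

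mt-Nd6 encodes a complex I subunit and is the only protein-coding gene on the light strand of mitochondrial DNA (chrM:13552-14070, minus strand). It lay at 202 to 252 CPM in CTL, 209 to 251 in CPZ and 184 to 211 in RCV, so that CPZ and RCV overlapped narrowly. The log2 fold change was 0.27 ± 0.08 in CPZ against RCV (SE, adjusted p = 0.0497), -0.24 ± 0.07 in RCV against CTL (adjusted p = 0.339) and 0.03 ± 0.07 in CPZ against CTL (adjusted p = 0.871). The call sat on the threshold and held in 9 of 25 alternatives, with adjusted p from 0.0149 to 0.143. The gene shares 14 bases with mt-Nd5 on the opposite strand and no window with another gene.

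The remaining mitochondrial members also lay above 0 in this comparison, apart from mt-Nd4l alone at -0.14 ± 0.14 (SE), which was at 0.15 ± 0.12 with its copy. The median of the 13 was 0.16, and 0.16 with copies, when all 13 lay above 0, from 0.07 for mt-Co1 to 0.30 for mt-Atp8. No copy was added to mt-Atp8, and the 13 are not independent of each other. Per mouse, their mean log2-CPM with copies was 10.77 to 11.18 in CPZ and 10.74 to 10.96 in RCV, so the groups overlapped. The nuclear median was 0.05, with 60 of 80 above 0 beside 48.5% of all genes tested, and 20 below, beside 51.5%. The number below 0 was 10 without a filter on low counts and 10 to 22 over all alternatives. By complex the nuclear medians were 0.05 for I, 0.05 for II, 0.03 for III, 0.08 for IV and 0.06 for V.

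The balance of the 2 genomes was also read as a share of each library. Mitochondrial members took 3.38% to 4.22% of counts in CTL, 3.60% to 4.44% in CPZ and 3.52% to 4.00% in RCV. With copies the means were 5.19% ± 0.634 in CTL (SD, n = 5), 5.57% ± 0.525 in CPZ (n = 4) and 4.99% ± 0.270 in RCV (n = 4). Nuclear members took 0.823% ± 0.0221, 0.827% ± 0.0341 and 0.791% ± 0.0200 in the same order. The groups overlapped in every one of these shares.

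Within CTL the mitochondrial share with copies formed no tight cluster, at 5.72%, 5.52%, 4.52%, 4.49% and 5.72%, while the nuclear share moved little. The ratio of mitochondrial counts with copies to the nuclear counts ranged from 5.37 to 7.03 in CTL, 5.88 to 7.71 in CPZ and 5.74 to 6.88 in RCV. The mean ratios were 6.33, 6.75 and 6.31, which differ by less than the SD within CTL of 0.868. The most abundant ribosomal RNA gene took 0.548% to 5.32% of counts, and its part in these shares was not tested.

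**Figure D4:**
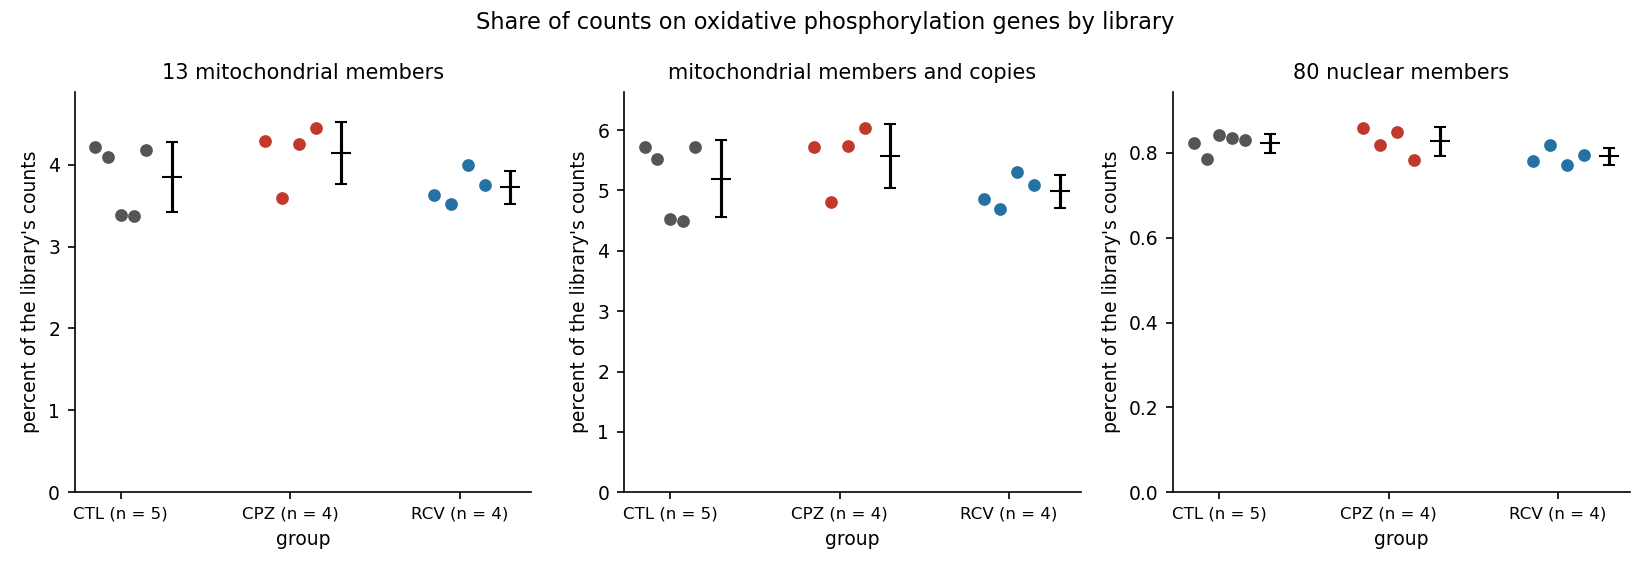
Percent of each library's counts (points) on the 13 mitochondrial members, on these and their copies, and on the 80 nuclear members, by group with mean and SD. All 3 groups overlap in each panel, with mitochondrial shares of 3.38% to 4.44% and nuclear shares of 0.772% to 0.857%.

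Other mitochondrial gene lists gave context. None of the 42 tested assembly factors, 10 genes of copper delivery to complex IV, 19 of mitochondrial genome expression, 8 nuclear regulators, 13 electron carrier genes, 16 genes of the tricarboxylic acid cycle or 14 of mitochondrial membranes was called by edgeR in any comparison, and 0 to 3 genes of each list lay under an unadjusted p of 0.05. Their medians in CPZ against CTL ran from -0.05 to 0.05. For copper delivery the median was 0.05 in CPZ against CTL, with values from -0.12 to 0.33.

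The mitochondrial stress response list was the exception. Of 16 tested genes, 11 rose in CPZ against CTL, 9 were higher in CPZ than in RCV, and none was called in RCV against CTL, where the median was 0.03. Trib3, a pseudokinase induced by ATF4, rose by 4.28 ± 0.56 and Atf5, a transcription factor of this response, by 2.86 ± 0.11 (SE, adjusted p = 0.000108 and 3.58e-10). Mthfd2 and Aldh1l2, enzymes of mitochondrial folate metabolism, rose by 1.34 ± 0.21 and 1.35 ± 0.15 (adjusted p = 0.000427 and 9.44e-06). The chaperones Hspa9 and Hspe1 rose by 0.21 and 0.23, and Hspd1 stood at -0.01 (adjusted p = 0.0151, 0.029 and 0.956). Many genes of this list are ATF4 targets that other stresses also raise, and their cells of origin cannot be told apart in bulk tissue.

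The cytosolic ribosomal proteins served as a second set of abundant, coordinately expressed genes. Of 78 tested, 36 rose in CPZ against CTL, with a median of 0.22, and 27 were higher in CPZ than in RCV, with a median of 0.25. Oxidative phosphorylation members had 1 and 2 calls of 93 in the same fits. Spread within groups was lower for nuclear members, with a median SD of 0.09 beside 0.18 over all genes tested, many of which have fewer counts. The first value is from log2 of CPM without a prior count and the second from log2-CPM with a prior count of 2.

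**Figure D5:**
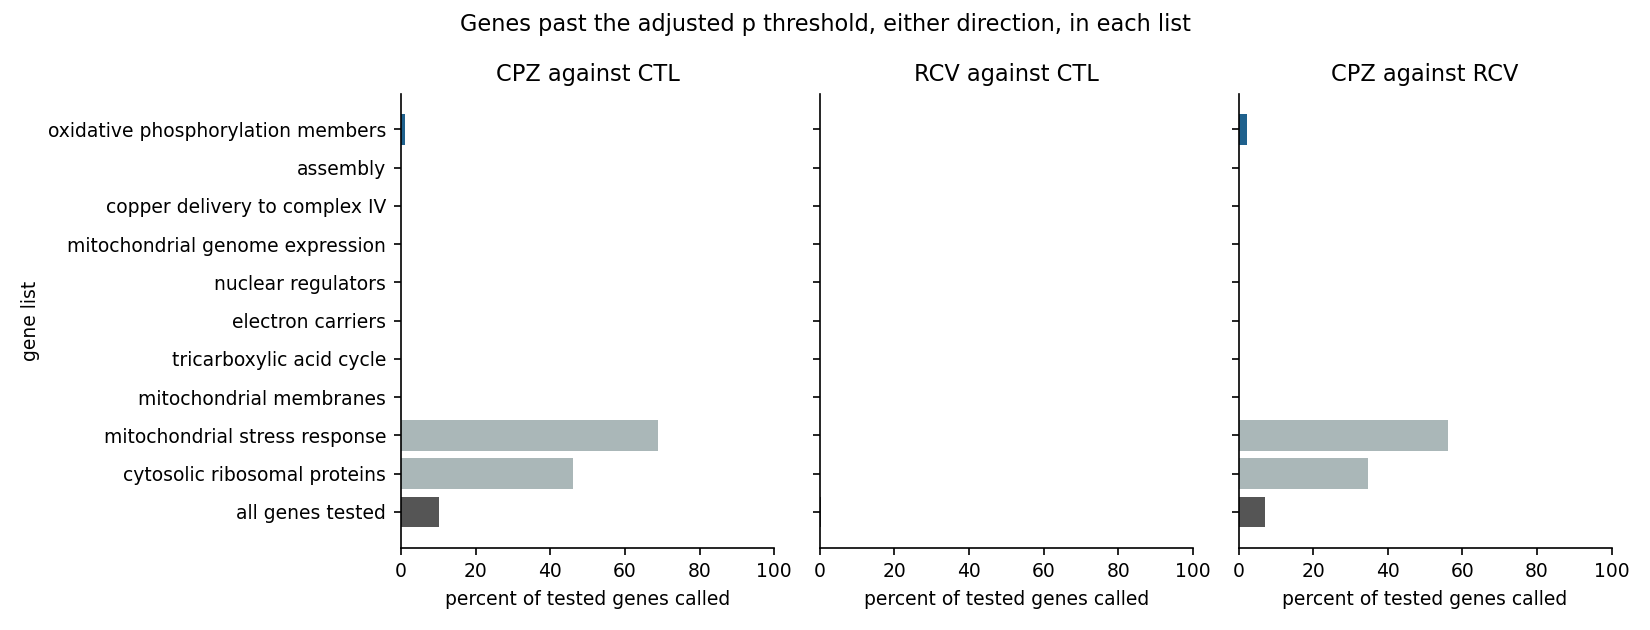
Percent of tested genes past the adjusted p threshold of 0.05, in either direction, for the oxidative phosphorylation members (blue), 8 other mitochondrial lists, cytosolic ribosomal proteins and all genes tested (dark) in the 3 comparisons. In CPZ against CTL the members reach 1.08%, the stress response list 68.8%, ribosomal proteins 46.2% and all genes 10.2%, and the other 7 lists 0%.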

How the data were processed

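Bulk RNA-seq libraries of 5 CTL, 4 CPZ and 4 RCV mice were read with 50-base paired ends, and the submitters' processing notes name STAR, RSEM and mm10, without versions. The authors name the Kapa mRNA HyperPrep kit for these libraries. How evenly that kit recovers mitochondrial RNA, mt-Nd6 among it, was not tested. The authors deposited estimated counts per gene, not scaled, which were rounded here, TPM values, and a gene annotation. Groups came from the treatment labels. All 13 libraries entered a single fit with filterByExpr, TMM scaling and the robust quasi-likelihood test of edgeR 4.0.16, with 1 mean per group and no covariate, and p-values were Benjamini-Hochberg adjusted over all 14985 genes tested at a threshold of 0.05. Standard errors were the fold change over the root of F, and 95% intervals used the total degrees of freedom. Log2-CPM used a prior count of 2, except in the median SD of the nuclear members. P-values weigh the difference between group means against the spread between mice.

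Alternatives were DESeq2 1.42.0, limma 3.58.1 on counts and on log2(TPM + 1) or log2(TPM + 0.1), other filters and scalings, a replicate block and leaving out each library. Adding copies was chosen after seeing the data. Copies were genes with over 50% of their 50-base windows in a member, found in GENCODE M21, which held 98.1% of the identifiers. Ribosomal proteins exclude the Rps6k kinases. Named members are all mitochondrial ones, called ones, the highest TPM of each complex, the 3 highest and lowest nuclear fold changes where none was called, and isoform pairs. Members with an unadjusted p under 0.05 or groups that do not overlap, and the largest called genes of the stress list with its chaperones, were named after their values were seen. Members and lists were chosen with earlier results of these data known. The 92 spike-in identifiers were left out. The fits were also run on simulated counts drawn gene by gene, with planted changes larger than the medians above. Small shifts shared by many genes were not simulated.

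Libraries of one group differed by more than sampling noise in all 22 pairs, at 4.23 to 16.3 chi-square per gene.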

Additional observations from a re-analysis of the deposited data

Results flagged for a closer look

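Of 123 combinations of a group with a named member, share or score, 1 held a library far from the others by Dixon's criterion, which chance gives in about 1 in 20. It was Atp5g2, a c subunit gene of the ATP synthase, in CTL, where replicate 1 stood at 5.56 log2-CPM and the other 4 libraries at 5.75 to 5.78. The processed pseudogene Gm10175, whose windows all lie within Atp5g2, had 108 counts in that library and 0 to 74.8 in the other CTL libraries. Its part in the value was not tested.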

How the results depend on the processing

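The count of members called in RCV against CTL was 0 in all 25 alternatives. The count of 1 in CPZ against CTL fell to 0 with limma on log2(TPM + 1) without a filter, and was 0 to 1 when single libraries were left out, being 0 without CPZ replicate 1 or 2. The count of 2 in CPZ against RCV was 0 with limma-voom, 1 with limma on log2(TPM + 0.1), with limma on log2(TPM + 1) without a filter, with only the 2 groups compared and with the replicate block, and 0 to 2 with single libraries left out. It was 0 without CPZ replicate 1, RCV replicate 1 or RCV replicate 3. The genes called also differed. With limma on log2(TPM + 1) the 2 were Cox6a2 and Cox7b, and without a filter the 1 was Cox7b. Neither Cox6a2 nor mt-Nd6 passed with limma on log2(TPM + 0.1). With the replicate block the 1 was Cox6a2. In the TPM fits Cox7b passed in CPZ against RCV at 0.57 (adjusted p = 0.0108 to 0.023), beside 0.18 (adjusted p = 0.248) on counts, and the cause was not tested. Medians of both genomes moved by less than the spread between mice in every alternative and ran from -0.11 to 0.24 over both genomes and all comparisons. In CPZ against CTL the nuclear median ran from -0.01 to 0.02 and so changed sign around 0. The mitochondrial share averaged 3.90% over all libraries, 7.92% of TPM and 5.25% with copies. In CTL, CPZ and RCV it was 7.92%, 8.25% and 7.59% of TPM and 5.19%, 5.57% and 4.99% with copies, and in RCV 4.07% without mitochondrial and ribosomal RNA counts in the denominator. No pairing of mice by replicate number was seen, though these correlations over all genes may miss a shared batch. Of 12 same-number pairs, 3 correlated above 0.1, and 1 of 12 libraries correlated best with its own number. With the replicate block, mt-Nd6 in CPZ against RCV had an adjusted p of 0.113 and no other call among members changed. The number of all genes called in RCV against CTL was 56, beside 12 with limma-voom, 123 with the DESeq2 Wald test 22 with limma on unfiltered TPM, 20 with at least 10 counts required in every library, and 21 (without RCV replicate 2) to 87 (without CPZ replicate 3) with single libraries left out. In CPZ against RCV it was 1050, beside 487 to 599 with limma on TPM, and 632 or 693 once CPZ replicate 1 or 2 was omitted. In CPZ against CTL it was 1522, beside 992 with limma on unfiltered TPM. Among the limits are the chromosome 1 copies, the low counts of Cox6a2, the different times of sampling and the mixed cell types of a hemisphere.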
